A study of Mus musculus with 2 samples.

Results

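Noradrenaline is made from tyrosine by a short chain of enzymes, and 8 genes of that chain and of its cofactor supply were followed cell by cell in celiac and superior mesenteric ganglia of the mouse. These are Th, Ddc and Dbh, which encode the enzymes of the chain, Cyb561, and the tetrahydrobiopterin genes Gch1, Pts, Spr and Qdpr. The genes were taken by name, 8 of the 32183 genes counted, and all 8 were among the 15917 genes that passed the filter on low counts. The ganglia are sympathetic ganglia that innervate abdominal organs. Their tissue was digested and dissociated, and 2 libraries of a single group were made with the 10x Genomics 3' method, which counts unique molecular identifiers (UMIs), that is, single RNA molecules captured at the 3' end. The series used 20 mice of both sexes aged 7 to 8 weeks. The labels name no strain, genotype or treatment and do not say how many animals stand behind each library.

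Tyrosine hydroxylase (Th) turns tyrosine into L-DOPA and is the rate-limiting step of the pathway. Aromatic L-amino acid decarboxylase (Ddc), which needs vitamin B6, turns L-DOPA into dopamine, and dopamine beta-hydroxylase (Dbh), a copper enzyme of the secretory vesicle, turns dopamine into noradrenaline with ascorbate as electron donor. Cytochrome b561 (Cyb561) carries electrons across the vesicle membrane and so restores that ascorbate. Th also needs tetrahydrobiopterin, which is built from GTP by GTP cyclohydrolase 1 (Gch1), 6-pyruvoyltetrahydropterin synthase (Pts) and sepiapterin reductase (Spr), and is regenerated after use by quinoid dihydropteridine reductase (Qdpr). Postganglionic sympathetic neurons are the cells known for this pathway in the ganglia, whereas biopterin is also used outside neurons, for instance by nitric oxide synthases.

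Library 1 held 94521010 UMIs and library 2 held 95235439 UMIs, with medians of 6483 and 6498 UMIs per barcode, and 12033 and 11654 barcodes were kept after filters and removal of doublets. The libraries had 64 barcodes in common, and of these none in library 1 and 1 in library 2 was a deep neuron. Neuron-like droplets, called by markers that did not include the 8 genes, numbered 871 and 819. Most fell into deep neurons with medians of 21228 and 20807 UMIs (131 and 128 droplets) and into low-UMI neuronal droplets with medians of 1961.5 and 2006.5 UMIs (586 and 566 droplets). The deep neurons were a Shox2-rich population of 63 and 68 droplets and an Rxfp1-rich population of 68 and 60 droplets, named by these genes. All 16 neuron markers reached 20 CPM (counts per 1000000 UMIs) in both depth groups, and the summed level of the list was 27069 and 28389 CPM in low-UMI droplets, 31552 and 33177 CPM in deep neurons and 2314 and 2335 CPM over the non-neuronal classes. The low-UMI droplets are named here by their UMIs and neuron genes and not as a cell type. The largest of their clusters, with 717 of the 1152 droplets, carried haemoglobin and collagen markers of other cells. It had no neuron marker among its 10 leading genes, but neither had the Shox2-rich population. Further neuron-like clusters were set aside from the comparisons because markers of glia, fibroblasts, mural or immune cells led them. The rule was not equal for both depth groups, since the low-UMI cluster of 717 droplets was kept despite its markers of other cells.

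The promoter windows that held a cyclic AMP response element (CRE), a well-known control site of Th, or its 5-base core are shown. Each line holds the 250 bases before the RefSeq start on build GRCm38.p6, 5′ to 3′ on the strand of the gene, with the CRE or its core in capitals (in Dbh the core lies on the other strand and reads as its reverse complement). The Th window is chr7:142899996-142900245 on the minus strand, the Dbh window is chr2:27165257-27165506 on the plus strand, and the Gch1 window is chr14:47189414-47189663 on the minus strand.
Th: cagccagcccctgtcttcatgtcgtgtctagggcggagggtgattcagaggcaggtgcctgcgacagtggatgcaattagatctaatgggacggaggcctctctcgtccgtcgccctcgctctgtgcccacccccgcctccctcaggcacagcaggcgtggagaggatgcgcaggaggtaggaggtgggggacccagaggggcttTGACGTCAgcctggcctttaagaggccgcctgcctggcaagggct
Dbh: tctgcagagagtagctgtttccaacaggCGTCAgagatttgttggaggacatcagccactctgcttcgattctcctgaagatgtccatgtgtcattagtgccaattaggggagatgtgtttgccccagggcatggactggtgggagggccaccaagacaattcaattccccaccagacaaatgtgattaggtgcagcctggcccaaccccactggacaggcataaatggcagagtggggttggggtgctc
Gch1: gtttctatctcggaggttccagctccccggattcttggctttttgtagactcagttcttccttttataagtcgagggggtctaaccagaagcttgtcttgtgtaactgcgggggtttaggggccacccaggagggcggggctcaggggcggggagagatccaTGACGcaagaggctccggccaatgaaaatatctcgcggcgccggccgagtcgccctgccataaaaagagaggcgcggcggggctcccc

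The full CRE, TGACGTCA, was found in the Th window, from 45 to 38 bases before the start, and in 1.547% of the 32841 mouse promoter windows searched on both strands. The core TGACG, which lies inside the full CRE and was found there on both strands, was also present in the windows of Dbh, from 222 to 218 bases before the start, and Gch1, from 88 to 84 bases before it. Of all windows, 17.77% held this core. The GC box GGGCGG was found in the windows of Th, Gch1, Pts, Spr and Qdpr, with 2 copies each in Gch1 and Spr, against 32.75% of all windows. The TATA box TATAAA was found in the windows of Gch1 and of 1 of the 2 Ddc starts, against 12.37% of all windows, and the other Ddc start held none of the motifs. The E-box CAGCTG (13.0% of all windows), the homeodomain core TAATTA (4.842%) and the GATA motif GATAAG (6.547%) were in none of these windows. Entries were found for 7 of the 8 genes, and the motifs are matches of letters only.

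**Figure D1:**
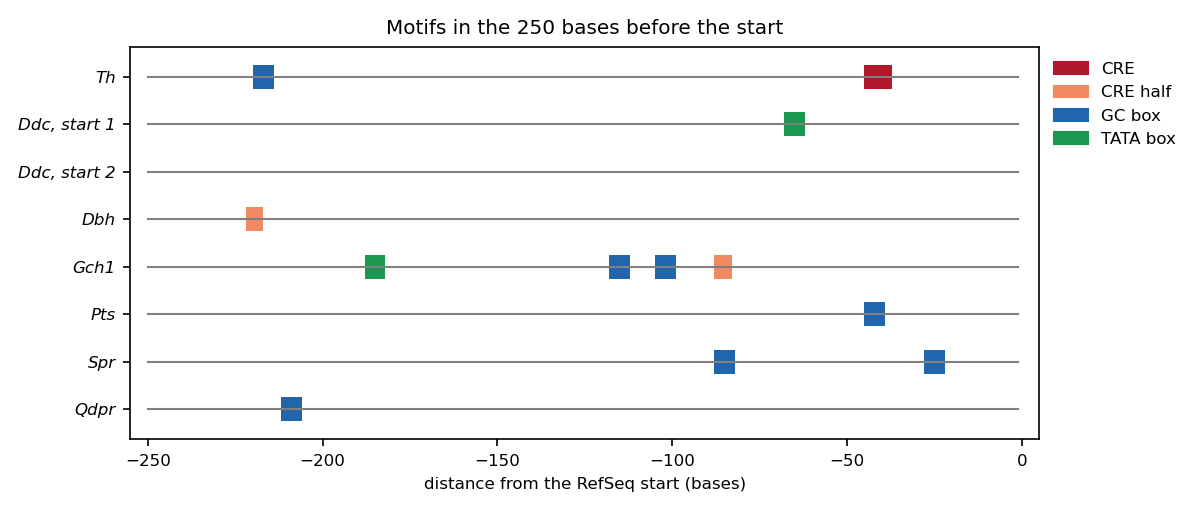
Motif matches in the 250 bases before each RefSeq start (x axis, bases from the start; 1 row per start, with both starts of Ddc). The full CRE stands only in the Th row, 45 to 38 bases before the start, and GC boxes stand in 5 of the 7 genes.

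In GENCODE M21 on GRCm38, Th spans chr7:142892752-142931128, Dbh chr2:27165233-27183200, Gch1 chr14:47153895-47189413, Pts chr9:50521617-50528724, Spr chr6:85130176-85137766 and Qdpr chr5:45434021-45450236. Ddc (chr11:11814101-11898144) and Cyb561 (chr11:105933702-105953336) lie on the same chromosome. Dbh is on the plus strand and the others are on the minus strand. The antisense gene 1700042O10Rik overlaps Ddc and held 1002 and 999 UMIs, against 10496 and 10543 UMIs of Ddc. Gm42413 lies antisense to Qdpr and held 218 and 234 UMIs, against 6133 and 5915 UMIs of Qdpr. No source states whether the counting used strand, and Ddc and Qdpr levels are uncertain by that share.

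Th was highest in low-UMI neuronal droplets, at 669.8 and 724 CPM in libraries 1 and 2. Its level was 336 and 275 CPM in the Shox2-rich population, 288 and 209 CPM in the Rxfp1-rich population and 81.3 and 86.2 CPM over all non-neuronal classes together. The low-UMI range lay apart from the rest, the Shox2-rich and Rxfp1-rich ranges overlapped, and all 3 lay above every non-neuronal class. The nearest of these classes was myelinating Schwann cells, at 177 and 140 CPM. Ddc followed the same order, with 815 and 799 CPM in low-UMI droplets, 566 and 583 CPM in the Shox2-rich population, 460.2 and 479 CPM in the Rxfp1-rich population and 80.1 and 83.6 CPM over the non-neuronal classes. Here the 3 neuronal ranges did not overlap.

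Dbh, the last enzyme of the chain, was at 1318 and 1496 CPM in low-UMI droplets, 577 and 406 CPM in the Shox2-rich and 428 and 337 CPM in Rxfp1-rich neurons. It was at 209 and 202 CPM over the non-neuronal classes. In myelinating Schwann cells Dbh stood at 379 and 323 CPM, a range that overlapped that of Rxfp1-rich neurons. Cyb561, the ascorbate partner of Dbh, had 808 and 814 CPM in low-UMI droplets, 411 and 348 CPM in the Shox2-rich population, 245 and 238 CPM in the Rxfp1-rich population and 79.7 and 73.5 CPM over the non-neuronal classes. None of its 3 neuronal ranges overlapped another or any non-neuronal class.

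Gch1, the entry enzyme of biopterin synthesis, had 262 and 228 CPM in low-UMI droplets, 169 and 143 CPM in the Shox2-rich and 158 and 131 CPM in Rxfp1-rich neurons. Mast cells, at 182 and 167 CPM, overlapped the Shox2-rich range, and blood endothelial cells followed at 119.8 and 108 CPM. Pts had 96.1 and 69.7 CPM in low-UMI droplets, 31.3 and 27.0 CPM in the Shox2-rich population, 18.4 and 30.9 CPM in the Rxfp1-rich population and 36.5 and 33.5 CPM over the non-neuronal classes. Spr, which completes biopterin synthesis, had 80.1 and 90.5 CPM in low-UMI droplets, 17.2 and 15.6 CPM in the Shox2-rich population, 11.02 and 12.36 CPM in the Rxfp1-rich population and 49.2 and 48.5 CPM over the non-neuronal classes. The deep neuron populations were thus the lowest of the 13 populations for Spr, and their ranges lay below those of every other population. Qdpr, the recycling enzyme, had 253 and 271 CPM in low-UMI droplets, 90.7 and 72.4 CPM in the Shox2-rich population, 52.6 and 37.1 CPM in the Rxfp1-rich population and 60.3 and 58.1 CPM over the non-neuronal classes. The Shox2-rich range began among the highest classes and reached above them all, and the Rxfp1-rich range reached below the lowest class, dendritic cells at 39.9 and 41.0 CPM.

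**Figure D2:**
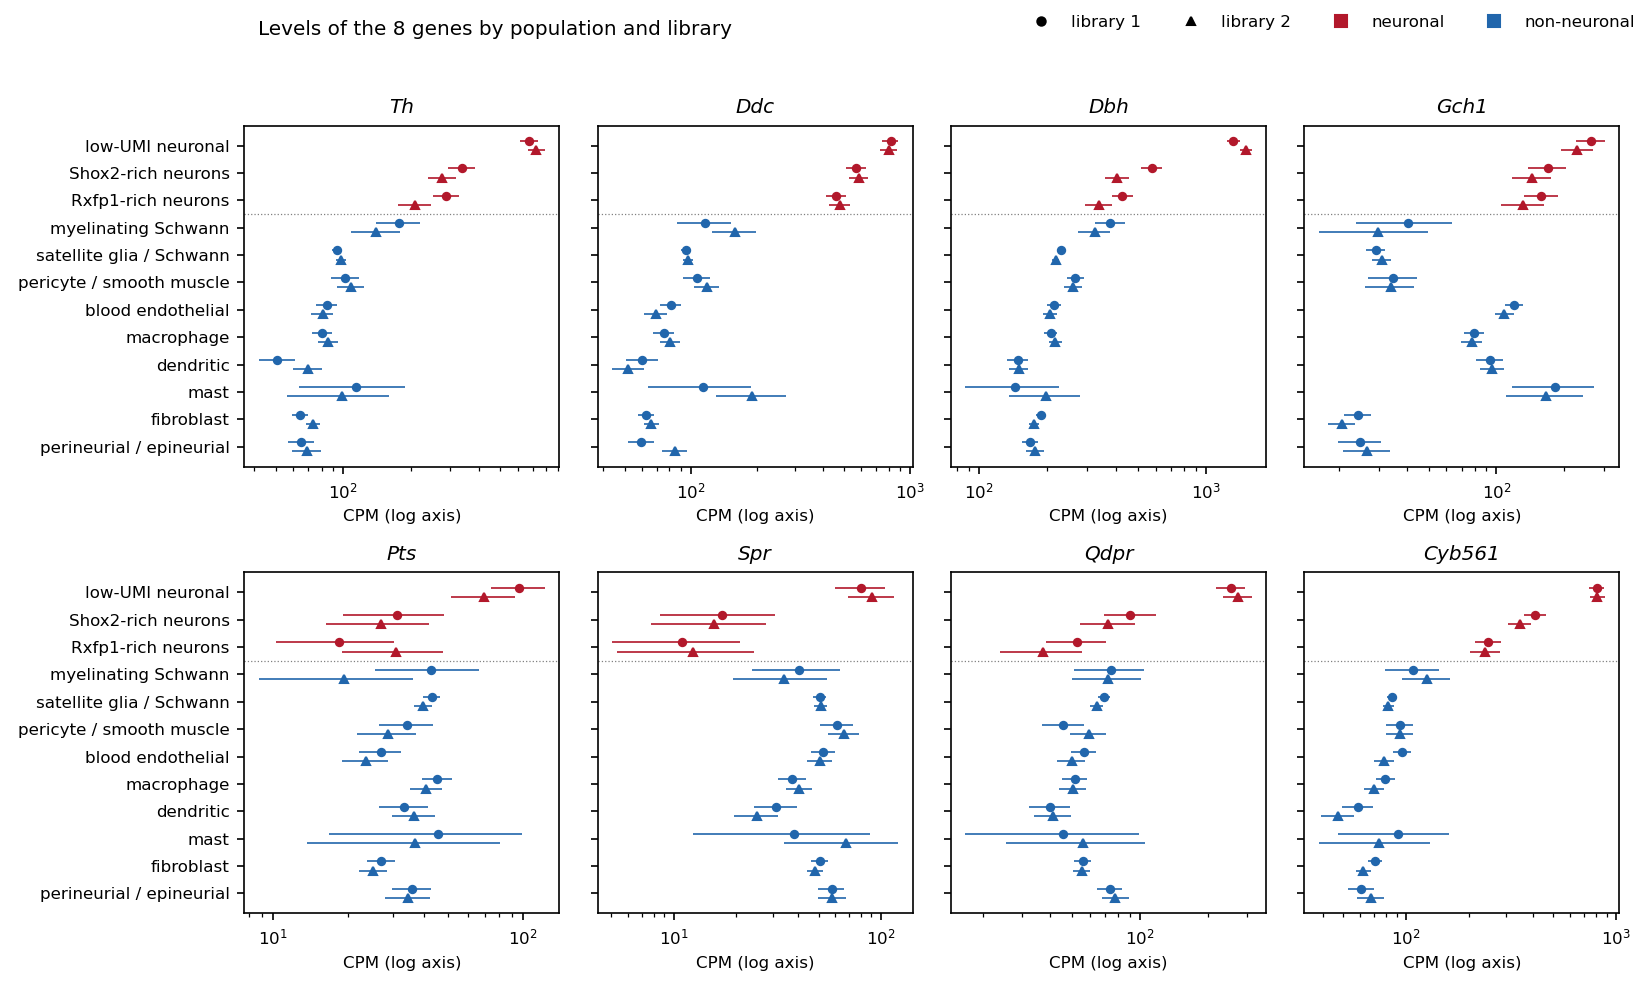
CPM of each gene (log x axis, a scale per panel) in 12 populations, neuronal in red above the dotted line and non-neuronal in blue, with a circle for library 1 and a triangle for library 2; bars are exact 95% Poisson intervals of the UMI count and cover counting error only. The low-UMI droplets are highest in all 8 panels, while the deep neurons lie above the non-neuronal classes for Th, Ddc and Cyb561 and below them for Spr. Deep clusters that were set aside are not shown.

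Deep neurons exceeded the mean of 9 non-neuronal classes in all 3 enzymes of noradrenaline synthesis, in Cyb561 and in Gch1. The later biopterin genes went the other way or did not pass the test. The log2 fold change was 2.23 ± 0.07 (SE) for Ddc, 1.64 ± 0.09 for Cyb561, 1.34 ± 0.08 for Th, 1.20 ± 0.10 for Gch1 and 0.75 ± 0.07 for Dbh. The largest adjusted p of these was 2.79e-14, in Dbh (edgeR, quasi-likelihood test, p-values adjusted by Benjamini-Hochberg over 15917 genes, 2 libraries). Spr was lower by a log2 fold change of -2.07 ± 0.20 (adjusted p = 4.98e-15) and Pts by -0.67 ± 0.18 (adjusted p = 0.00065). Qdpr differed by -0.21 ± 0.13 and did not pass (adjusted p = 0.161).

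Thus 5 of the 8 genes were called higher, where 32.5% of all genes tested were, and 2 were called lower, where 33.6% were. The median log2 fold change was 0.98 over the 8 genes and -0.18 over all genes tested. That median of all genes was 0.13 without scaling factors and 0.11 with the size factors of DESeq2, a shift that a scaling gives to all genes alike. The call of Pts rested on this scaling: its log2 fold change was -0.36 without scaling factors (adjusted p = 0.0808). With library 1 left out Pts was at -0.09, and with library 2 left out Dbh was at 1.26. Values with a library left out, here and below, have no test and no scaling factors, so they mix both changes. The median of all genes was then 0.007 without library 1 and 0.086 without library 2. Qdpr lay close to the median of all genes under either scaling, and its value was 0.11 without scaling factors. It was called lower under 3 other alternatives, at -0.36 with all UMIs (adjusted p = 0.00303), -0.34 with another split of the UMIs (adjusted p = 0.0202) and -0.31 with only the low-UMI clusters without markers of other cells (adjusted p = 0.035), so that 3 of the 8 genes were then lower.

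**Figure D3:**
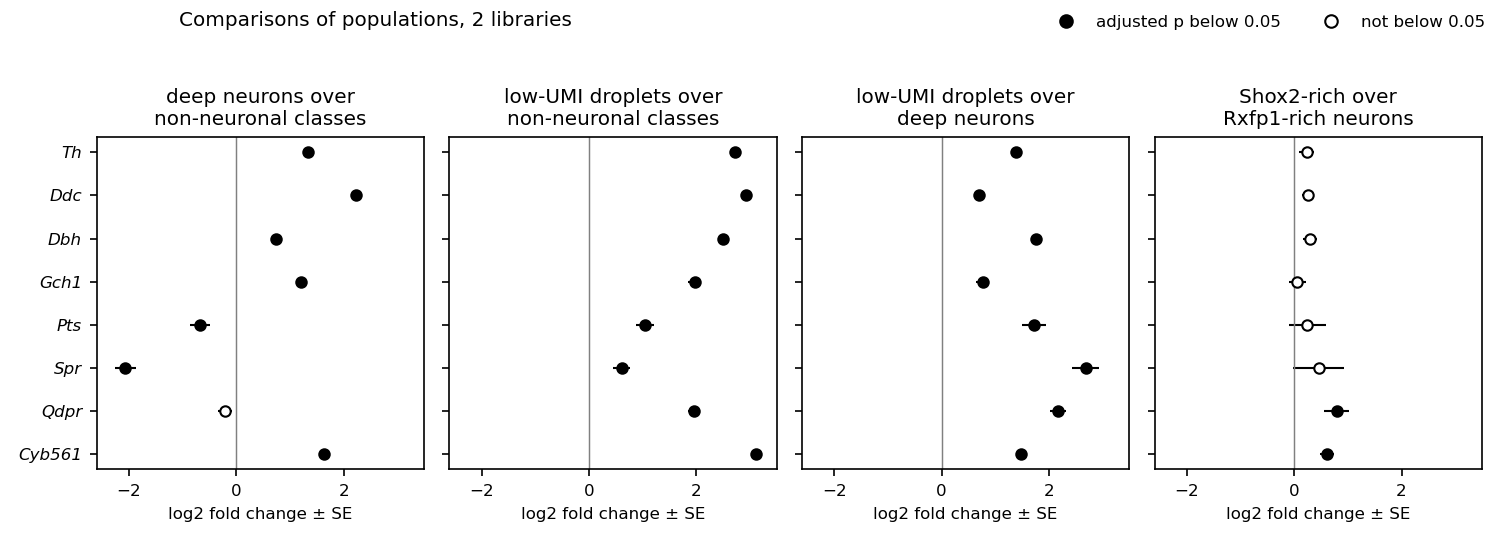
Log2 fold change (x axis) of each gene ± SE in 4 comparisons of populations over 2 libraries; filled points have an adjusted p below 0.05 in edgeR's quasi-likelihood test. All 8 genes lie right of 0 in low-UMI droplets over deep neurons and over non-neuronal classes, and Spr lies at -2.07 in deep neurons over non-neuronal classes; Qdpr, at -0.21 there, changes sign without scaling factors.

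All 8 genes were higher in low-UMI neuronal droplets than in deep neurons relative to the UMIs of the droplets. The share of genes called higher in this comparison was 27.8%, and 26.1% were called lower. The largest differences were in the biopterin genes Spr (log2 fold change 2.69 ± 0.25), Qdpr (2.17 ± 0.14) and Pts (1.72 ± 0.23), and in Dbh (1.76 ± 0.09). Cyb561 (1.49 ± 0.09) and Th (1.39 ± 0.10) followed, and Gch1 (0.77 ± 0.12) and Ddc (0.70 ± 0.08) differed least. The largest adjusted p among the 8 was 2.33e-07, in Gch1. The median over the 8 genes was 1.60, and that over all genes tested was 0.00. Per droplet, all 8 went the other way. Low-UMI droplets held means of 1.63 and 1.72 UMIs of Th and 3.33 and 3.47 of Dbh. Deep neurons held 7.12 and 5.05 of Th and 11.4 and 8.07 of Dbh. Droplets of the non-neuronal classes held 0.60 and 0.64 of Th and 1.49 and 1.51 of Dbh. The part of such background in the low-UMI levels was not tested.

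Other RNAs moved with this comparison. A list of 12 neuron genes that holds none of the 8 summed to 26548 and 26877 CPM in low-UMI droplets and to 8177 and 7051 CPM in deep neurons, so the low-UMI level was 325% and 381% of the deep level. For the 8 genes that percentage ran from 161% in Ddc to 583% in Spr in library 1, and from 149.8% in Ddc to 644% in Spr in library 2. Malat1, an RNA retained in the nucleus, was at 6468 and 7567 CPM in low-UMI droplets and at 76410 and 78377 CPM in deep neurons. The 7 satellite glia markers summed to 3249 and 2689 CPM in low-UMI droplets and to 429 and 356 CPM in deep neurons, with 4 and 3 of them at 20 CPM or more and none at 0. The 6 fibroblast markers summed to 1525 and 1575 CPM in low-UMI droplets and to 185 and 146 CPM in deep neurons, with 5 and 2 of them at that level and none at 0. Their part in the differences was not tested. In the low-UMI clusters without markers of other cells, the 8 genes were also all called higher than in deep neurons, an alternative added after seeing the data.

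The same 8 genes were called higher in low-UMI droplets than in the non-neuronal classes, the classes that also serve as reference for deep neurons. Of all genes tested, 25.2% were called higher and 24.1% lower here. Without scaling factors the higher share of called genes was 61.4%, against 51.1% with them. Log2 fold changes were 3.12 ± 0.08 for Cyb561, 2.93 ± 0.08 for Ddc, 2.73 ± 0.09 for Th and 2.51 ± 0.07 for Dbh. Among the biopterin genes they were 1.97 ± 0.12 for Gch1, 1.96 ± 0.11 for Qdpr, 1.04 ± 0.17 for Pts and 0.62 ± 0.16 for Spr, which had the largest adjusted p of the 8, 0.000686. With library 1 left out, Spr was at 0.93, with no test.

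The depth groups also differed within themselves. Among low-UMI droplets, a cluster of 351 droplets without markers of other cells had 891 and 863 CPM of Th and 309 and 374 CPM of Qdpr. The cluster of 717 droplets with such markers had 551 and 653 CPM of Th and 218 and 192 CPM of Qdpr, so both genes were higher in the smaller cluster in both libraries. Cyb561 went the other way, with 696 and 776 CPM in the smaller cluster and 894 and 888 CPM in the larger. The remaining low-UMI cluster, of 84 droplets, had the most Malat1 of the 3 (25288 and 28982 CPM) and the least Th, 329.7 and 444 CPM. Of the deep clusters that were set aside, the cluster of 80 droplets with mural cell markers had 1563 and 1696 CPM of Dbh, 861 and 1030.0 CPM of Cyb561 and 185 and 181 CPM of Qdpr. The cluster of 89 droplets with glia and fibroblast markers had 353 and 544 CPM of Dbh, 258 and 321 CPM of Cyb561 and 73.7 and 70.5 CPM of Qdpr. These are descriptions of clusters, with no test.

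Shox2-rich neurons had more Cyb561 and more Qdpr RNA than Rxfp1-rich neurons. The log2 fold change was 0.61 ± 0.13 for Cyb561 (adjusted p = 0.000667) and 0.79 ± 0.24 for Qdpr (adjusted p = 0.0278). In both libraries the Shox2-rich value lay above the Rxfp1-rich range for each gene. Of all genes tested, 2.75% were called higher and 3.15% lower in Shox2-rich neurons. The enzymes of the chain leaned the same way without passing: 0.30 ± 0.13 for Dbh (adjusted p = 0.209), 0.25 ± 0.10 for Ddc (adjusted p = 0.177) and 0.23 ± 0.14 for Th (adjusted p = 0.476). Ddc had 566 and 583 CPM against 460.2 and 479 CPM, without overlap, and it did pass with another random split of the UMIs (0.60, adjusted p = 6.67e-05). Clusters were drawn anew for that split, so the groups compared differ too. Its Shox2-rich population held 35 and 39 droplets instead of 63 and 68, and 48 droplets formed a further deep population.

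Qdpr did not hold that call under the same split, where its log2 fold change was 0.58 (adjusted p = 0.333). Gch1 (0.06 ± 0.16), Pts (0.25 ± 0.35) and Spr (0.46 ± 0.47) did not pass either, and the errors of Pts and Spr were the widest of the 8. The median deep neuron held 0 UMIs of Pts and 0 of Spr in both libraries. The median droplet held 9 and 7.5 UMIs of Ddc, 8 and 7 of Dbh, 6 and 5 of Th, 5 and 4 of Cyb561, 3 and 2 of Gch1 and 1 of Qdpr in each library. A single deep neuron of library 1 held 166 UMIs of Dbh, where the highest in library 2 was 38.

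RNA of neurons was present in droplets of all 9 non-neuronal classes and serves here as the free-RNA background. The 12-gene neuron list stood in these classes at 5.70% to 15.7% of its level in the low-UMI droplets of library 1 (median 8.45%) and at 5.56% to 15.4% in library 2 (median 8.35%). Cyb561 stood at 7.30% to 13.3% in library 1 (median 10.6%) and at 5.80% to 15.4% in library 2 (median 9.10%). Ddc had medians of 9.97% and 10.6%, with a highest class at 14.3% in library 1 and 23.9% in library 2. Its percentage over that of the list ran from 0.91 to 1.66 in library 1. In library 2 it ran from 1.10 to 2.46, above the list in every class. Th, with medians of 12.6% and 11.9%, was above the list in every class. Its percentage over that of the list ran from 1.29 to 2.02 in library 1 and from 1.19 to 1.73 in library 2. Dbh was above the list as well, with medians of 15.7% and 13.8% and a highest class at 28.7% and 21.6%, the myelinating Schwann cells. These cells were also the highest for the list itself. Set against deep neurons instead, the list over all classes together stood at 29.0% and 33.9%, Th at 26.3% and 35.4%, Dbh at 42.3% and 54.1%, Gch1 at 28.9% and 33.4%, Cyb561 at 25.1% and 24.9% and Ddc at 15.8% and 15.7%. On that measure Ddc was below the list, and the background was a larger share of the neuronal level.

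Of the tetrahydrobiopterin genes, Spr, Pts and Qdpr stood further above the list. Spr ran from 39.0% to 76.5% in library 1 (median 63.1%) and from 27.9% to 75.1% in library 2 (median 56.1%). Pts had medians of 37.4% and 49.6%, and Qdpr had medians of 21.9% and 20.5%. Gch1 was split between classes: its medians were 15.4% and 14.8%, but mast cells reached 69.6% and 73.0%. The ratio of Dbh to Th UMIs was 1.97 and 2.07 in low-UMI droplets and 1.60 and 1.53 in deep neurons, against 1.27 to 2.92 in the 9 classes (median 2.48 over both libraries). The ratio of Ddc to Th was 1.22 and 1.10 in low-UMI droplets and 1.64 and 2.19 in deep neurons, against a median of 0.986 in the classes. The ratio of Cyb561 to Th was 1.21 and 1.13 in low-UMI droplets and 1.03 and 1.21 in deep neurons, against a median of 0.903 in the classes. The class median of the Dbh ratio lay above both neuronal groups, and those of the Ddc and Cyb561 ratios lay below both. For Dbh and Ddc the low-UMI droplets were the nearer group. Single classes spread widely, with mast cells at 1.27 and 2.0 for Dbh to Th.

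**Figure D4:**
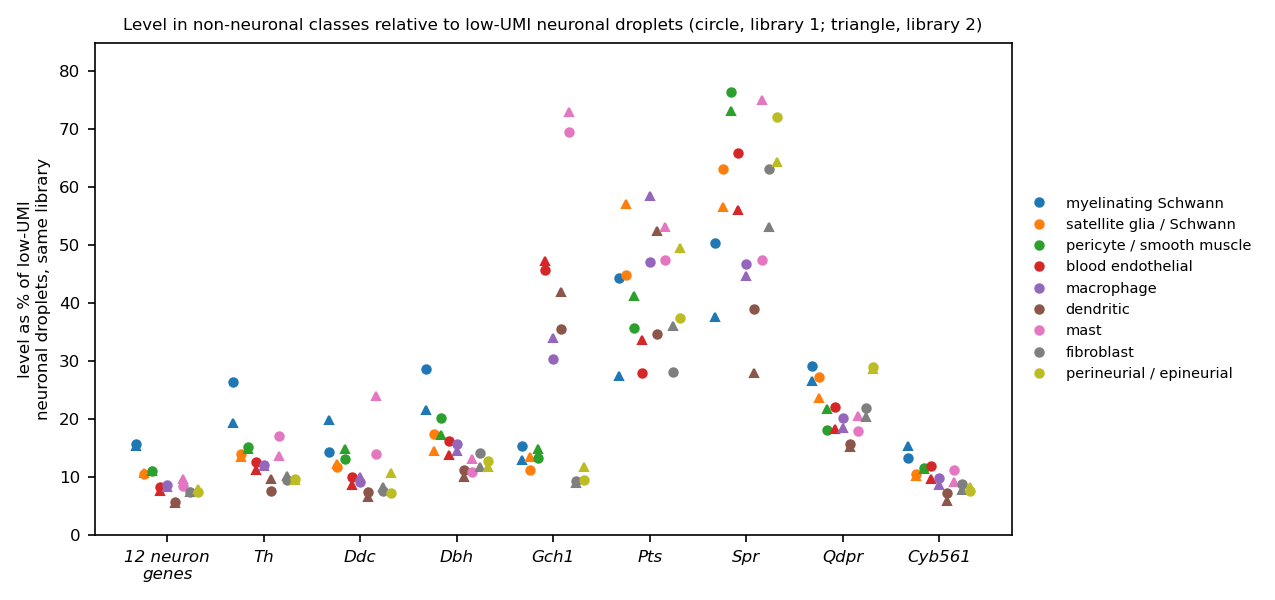
Level of a 12-gene neuron list and of each gene in 9 non-neuronal classes, as a percentage of the level in the low-UMI neuronal droplets of the same library (y axis), with a colour per class, a circle for library 1 and a triangle for library 2. Cyb561 keeps close to the list and Ddc reaches 23.9% in library 2, whereas Spr reaches 76.5% in library 1. Gch1 spreads up to 73.0% in mast cells of library 2.

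Each gene was then set in its leading non-neuronal class, chosen on the UMIs used for clustering, against the other 8 classes on the UMIs used for testing. Gch1 was led by mast cells, with a log2 fold change of 1.78 ± 0.27 (adjusted p = 2.56e-07), where 6.7% of all genes were called higher in that class. By class, Gch1 stood at 93.3 and 95.9 CPM in dendritic cells, 79.4 and 77.8 CPM in macrophages, 29.2 and 30.9 CPM in satellite glia or non-myelinating Schwann cells and 24.2 and 20.6 CPM in fibroblasts. In endothelial cells the Gch1 to Th ratio was 1.42 and 1.34, against 0.391 and 0.316 in low-UMI droplets, and in mast cells it was 1.60 and 1.69. Macrophages were also called higher for Gch1 than the other classes (0.86 ± 0.09, adjusted p = 7.57e-14), and perineurial or epineurial cells lower (-1.26 ± 0.13, adjusted p = 3.95e-13).

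Pts was led by macrophages, at 45.3 and 40.8 CPM (log2 fold change 0.60 ± 0.11, adjusted p = 2.39e-06, with 28.5% of all genes called higher), and at a log2 fold change of 0.34 with library 2 left out. Pericytes or smooth muscle cells led Spr, at 61.3 and 66.3 CPM (0.41 ± 0.12, adjusted p = 0.00294, with 20.6% called higher). Qdpr was led by perineurial or epineurial cells, at 73.4 and 77.8 CPM (0.38 ± 0.10, adjusted p = 0.0012, with 23.6% called higher). These differences were small beside the spread of Gch1 over the classes.

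Myelinating Schwann cells led the 4 remaining genes in CPM on the UMIs used for clustering. Of all genes, 12.2% were called higher in these cells. Their log2 fold change was 0.74 ± 0.17 for Th (adjusted p = 0.000256), 0.64 ± 0.13 for Dbh (adjusted p = 4.26e-05) and 0.51 ± 0.17 for Ddc (adjusted p = 0.016), while Cyb561, at 0.45 ± 0.19, did not pass (adjusted p = 0.0814). On the UMIs used for testing, Ddc stood at 117 and 159 CPM in these cells, and mast cells overlapped that range at 114 and 191 CPM. The log2 fold change of Ddc in mast cells was 0.75 ± 0.27, which did not pass (edgeR, adjusted p = 0.064). In myelinating Schwann cells with a library left out and no test, Th was at 1.15 and Dbh at 0.98 without library 2. Ddc was at 0.85 without library 1. The call of Th was lost with another split of the UMIs (0.46, adjusted p = 0.0793). Cyb561 gained one in 4 alternatives, at 0.57 in a fit of the compared populations only (adjusted p = 0.011), 0.48 with DESeq2 (adjusted p = 0.0286), 0.65 without scaling factors (adjusted p = 0.00604) and 0.53 with all UMIs (adjusted p = 0.00312). The 16 neuron markers summed to 4078 and 4001 CPM in these cells, against 1449 to 2945 CPM in the other 8 classes. The part of that RNA in their Th, Dbh and Ddc was not tested. Per droplet, myelinating Schwann cells held means of 0.70 and 0.69 UMIs of Th and 1.61 and 1.53 of Dbh. Deeper blood endothelial cells held 0.71 and 0.71 of Th and 1.77 and 1.76 of Dbh. Satellite glia or non-myelinating Schwann cells held 0.56 and 0.60 of Th and 1.35 and 1.41 of Dbh. For Th and Dbh the lead thus held in CPM and not per droplet. Within the glia, the cluster with the fewest UMIs (median 2951) had 176 and 171 CPM of Th and 424 and 365 CPM of Dbh. The cluster with the most (median 9551) had 63.6 and 67.1 CPM of Th and 159 and 165 CPM of Dbh.

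To compare droplets of unlike depth, each was thinned at random to 1500 UMIs, which left out none. This makes the total UMIs alike but not the background within them. Before thinning, endothelial cells held means of 0.71 and 0.71 UMIs of Th. Dendritic cells, at medians of 13580 and 13691.5 UMIs, held 0.79 and 0.89, so thinning can remove more background from deeper droplets. Th then had a UMI in 59.6% and 63.1% of low-UMI droplets, 39.7% and 22.1% of Shox2-rich neurons and 30.9% and 31.7% of Rxfp1-rich neurons, against 17.1% and 16.8% of endothelial cells, which should lack it. Before thinning, 48.9% and 48.8% of endothelial cells had a UMI of Th, at medians of 6995 and 7027 UMIs. The exact 95% binomial interval of the Shox2-rich share in library 2 ran from 12.9% to 33.8% and held the endothelial share. Before thinning, the median Shox2-rich neuron held 7 and 5 UMIs of Th, and the median endothelial cell held 0 in each library. Dbh had a UMI in 85.7% and 84.6% of low-UMI droplets, 54.0% and 47.1% of Shox2-rich neurons and 48.5% and 35.0% of Rxfp1-rich neurons, against 33.8% and 31.2% of endothelial cells. Ddc stood further from its background, with 58.7% and 61.8% of Shox2-rich and 55.9% and 45.0% of Rxfp1-rich neurons, against 14.4% and 13.9% of endothelial cells.

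Gch1 had a UMI in 30.5% and 30.9% of low-UMI droplets and 25.2% and 14.1% of deep neurons, against 17.1% and 16.4% of endothelial cells. In satellite glia or non-myelinating Schwann cells the share was 5.66% and 5.18%. Spr was found in 0 of 131 and 2 of 128 deep neurons (upper 95% limits 2.78% and 5.53%), against 9.11% and 7.12% of endothelial cells. Qdpr was found in 28.2% and 32.0% of low-UMI droplets and in 3.82% and 7.81% of deep neurons, against 10.7% and 7.46% of endothelial cells.

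**Figure D5:**
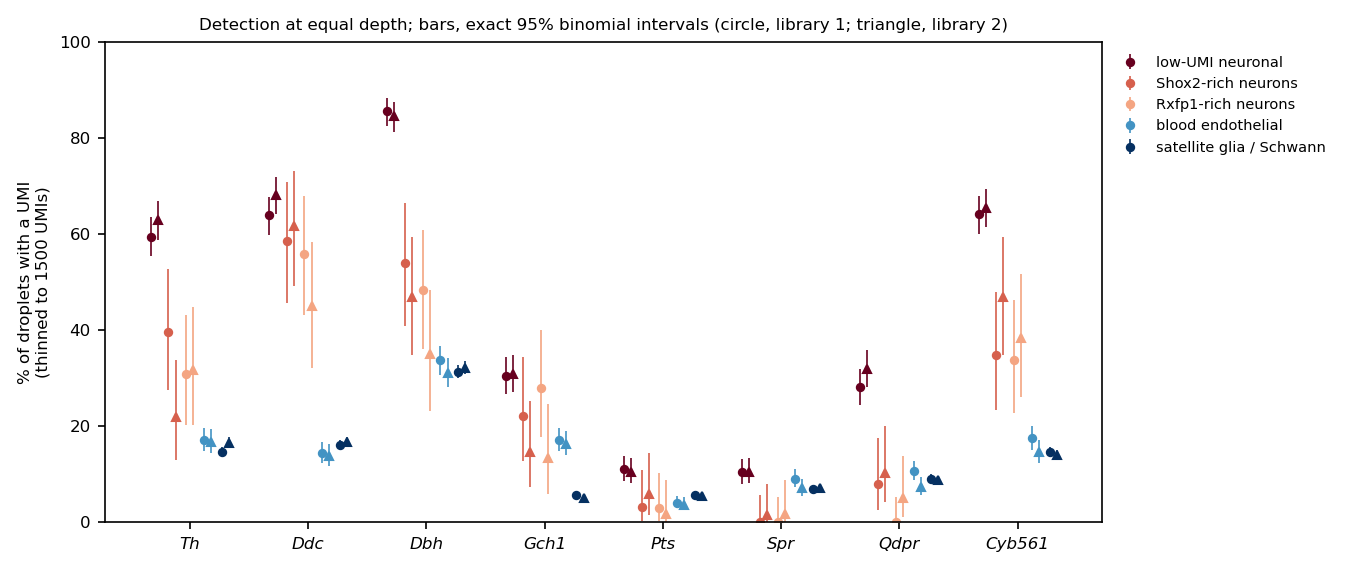
Percentage of droplets with a UMI of each gene (y axis) after thinning every droplet to 1500 UMIs, in 3 neuronal and 2 non-neuronal populations, with a circle for library 1 and a triangle for library 2; bars are exact 95% binomial intervals and cover counting error only. Ddc keeps the widest gap between deep neurons and the non-neuronal populations, and Spr is near 0 in deep neurons.

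Most deep neurons carried RNA for both ends of the chain. Over all UMIs, Th and Dbh were found together in 126 of 131 deep neurons of library 1 (96.2%, 95% interval 91.3 to 98.7) and 106 of 128 of library 2 (82.8%, 75.1 to 88.9). Endothelial cells with both made up 39.0% and 40.2%. The 5 genes Th, Ddc, Dbh, Gch1 and Cyb561 were found together in 80.9% and 68.0% of deep neurons and in 6.960% and 6.102% of endothelial cells. Thinned to 5000 UMIs, Th and Dbh were found together in 65.9% and 53.5% of deep neurons, against 21.2% and 20.8% of endothelial cells. Droplets with fewer UMIs were left out there, which kept 126 and 114 deep neurons. Of the endothelial cells it kept the deeper ones, 612 of 977 and 554 of 885. A deep neuron with neither gene was seen 0 times in library 1 and 3 times in library 2 over all UMIs.

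The partners of biopterin synthesis and recycling had 1 of 8 genes called higher and 2 called lower in deep neurons against non-neuronal classes, where 32.5% and 33.6% of all genes were. Pcbd1, the dehydratase that precedes Qdpr in recycling, was the gene called higher, with 72.8 and 53.3 CPM in deep neurons against 32.7 and 28.5 CPM (log2 fold change 0.84 ± 0.15). The carbonyl reductases Cbr3 and Cbr1, which can replace Spr in part, were lower, by -3.72 ± 0.73 and -1.73 ± 0.23. The median of the list was -0.60, or -0.22 with Gchfr, which had no UMI in deep neurons, set at 3 UMIs. In low-UMI droplets, 6 of the 8 were called higher than in deep neurons (27.8% of all genes), with Pcbd1 at 377 and 356 CPM (2.60 ± 0.13) and Cbr1 at 3.03 ± 0.26. The list's median was 1.78 there. Against the non-neuronal classes, 5 of the 8 were higher in low-UMI droplets and 2 lower (25.2% and 24.1% of all genes; median 0.92), Pcbd1 by 3.44 ± 0.11.

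Genes for the cofactors of Ddc and Dbh were called in both directions. The shares of all genes called in these comparisons, given above, are the background to the counts that follow, and with 3 to 8 genes a list no count is read as particular to its list. Of the copper and ascorbate genes, 5 of 7 could be tested. The copper pump Atp7a, which loads copper enzymes of the secretory pathway, had 369 and 365 CPM in deep neurons and 60.4 and 64.4 CPM in non-neuronal classes (log2 fold change 2.31 ± 0.08). The copper importer Slc31a1 had 335 and 297 CPM against 69.2 and 69.0 CPM (1.85 ± 0.08). The copper chaperones Atox1 (-2.39 ± 0.10) and Ccs (-0.98 ± 0.19) were lower, so that 3 genes of the list were higher and 2 lower (32.5% and 33.6% of all genes), with a median of 0.43. Low-UMI droplets had less Atp7a (-0.63 ± 0.11) and more Atox1 (2.69 ± 0.13) than deep neurons, with 2 genes of the list higher and 2 lower (27.8% and 26.1% of all genes; median 0.63). Against the non-neuronal classes 3 were higher and 1 lower (25.2% and 24.1% of all genes; median 0.30). Of the 4 vitamin B6 genes, 3 were lower in deep neurons than in the classes (median -1.30), among them Pdxk, the pyridoxal kinase, with 13.0 and 16.3 CPM against 25.1 and 27.6 CPM. In low-UMI droplets 3 of the 4 were higher than in deep neurons, with Pdxp at 2.56 ± 0.31; their median was 2.30, or 1.80 with Alpl set at 3 UMIs in deep neurons, where it had none. Against the classes 1 of the 4, Pdxp, was higher there (median 0.50).

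Pam, the copper and ascorbate enzyme that amidates neuropeptides, was the pathway gene outside the 8 that separated the deep populations. It had 625 and 616 CPM in the Shox2-rich and 1220 and 1356 CPM in Rxfp1-rich neurons, without overlap (log2 fold change -1.09 ± 0.08, adjusted p = 1.81e-17). Of the list of later and side steps of amine synthesis, 3 of 4 could be tested. Pam was higher in deep neurons than in the non-neuronal classes (2.32 ± 0.06), where Moxd1, with no UMI in deep neurons, and Hdc were lower (median -3.02). Low-UMI droplets had less Pam than deep neurons (-0.99 ± 0.09). Against the classes they had more Pam (1.33 ± 0.09), and Hdc and Moxd1 were lower (median -1.63). Pnmt, which turns noradrenaline into adrenaline in chromaffin cells, had 1 UMI in deep neurons, 1 in low-UMI droplets and 2 in the 9 classes on the UMIs used for testing.

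The 5 other cytochrome b561 genes had a median log2 fold change of -0.23 in deep neurons over non-neuronal classes, with Cyb561d2 at 17.2 and 12.6 CPM in deep neurons against 16.84 and 16.97 CPM. Low-UMI droplets had more Cyb561d2 than deep neurons (1.47 ± 0.31), 1 of the 5 (median 1.19), and 2 of the 5 were higher than in the non-neuronal classes (median 0.56). Among the other enzymes that use tetrahydrobiopterin, 3 of 7 could be tested, and the lipid enzyme Agmo was lower in deep neurons (-4.44 ± 0.22), at 7.55 and 5.18 CPM against 212 and 228 CPM (list median -1.92). Agmo was also lower in low-UMI droplets than in the classes (-3.60 ± 0.26, list median 0.04). The median of the list in low-UMI droplets over deep neurons was 0.91. Iron genes, which serve Th among many other enzymes, gave 2 higher and 2 lower calls among 5 in deep neurons, near the 32.5% and 33.6% of all genes (median 0.75), with Ftl1 at -2.91 ± 0.09 and Slc11a2 at 0.79 ± 0.23. In low-UMI droplets 3 of the 5 were higher and 1 lower than in deep neurons (median 0.69), with Ftl1 at 2.30 ± 0.12 and Fth1 at 2.15 ± 0.11. Against the classes 1 was higher and 2 were lower (median -0.21).

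Over the 13 populations, the mean log2(CPM + 1) of Th correlated with that of Cyb561 (Pearson's r = 0.984), Ddc (0.972) and Dbh (0.965), less with Qdpr (0.782), Gch1 (0.650) and Pts (0.496), while that with Spr was -0.122. These are descriptions over 13 populations that share libraries and neuronal RNA. The genes most like each member were Chga (0.990), Zcchc18 and Syt5 for Th, and Disp2 (0.989), Rundc3a and Ptprn for Ddc. Sult4a1 (0.994), Scg2 and Zwint were most like Dbh, and Napb (0.996), Ndrg4 and Cplx2 most like Cyb561. Ppp2r5c (0.940), Gripap1 and Tbc1d30 came nearest to Gch1, Arl8b (0.940), Ten1 and Atp6ap2 to Pts, Chmp6 (0.987), 2810006K23Rik and Spag7 to Spr, and Tmx2 (0.964), Serinc1 and Guk1 to Qdpr.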

How the data were processed

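The authors deposited raw UMI counts per gene and barcode for 2 libraries of 1 group. The submitters' processing notes name Cell Ranger 6.1.2 and mm10. Annotation, strand use and intron counting: not given in the sources used here. Kept barcodes had 500 or more genes, 1000 or more UMIs and a mitochondrial share below 20%, and Scrublet in scanpy 1.11.5 marked 4.45% and 5.09% as doublets, which were left out.

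Each UMI was assigned at random, with probability 0.5, to a share for clustering and naming or to a share for testing and CPM levels. Clusters came from 3000 variable genes without the 8 genes and the pathway lists, 30 principal components, 15 neighbours and Leiden clustering at resolution 1, and were named from marker lists. Satellite glia and non-myelinating Schwann cells could not be separated and form 1 class. Shares of droplets with a UMI, UMIs per droplet and co-detection use all UMIs.

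UMIs were summed per population and library, giving 26 sums of 13 populations, and tested with edgeR 4.0.16 (TMM, quasi-likelihood test, library as a block, Benjamini-Hochberg threshold 0.05); DESeq2 1.42.0 was an alternative. The block is paired by origin, since all populations of a library come from the same suspension. The p-values measure the scatter of populations between the libraries that is left after the block. That scatter is pooled over the 13 populations (12 residual degrees of freedom) and moderated over genes (56.15 prior degrees of freedom). It may be technical, and animals per library are not known. The procedure was tested on simulated data. Standard errors are the log2 fold change divided by the square root of F. Intervals cover counting error only. No fold is given against a group at 0.

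The 8 genes and all lists were chosen with earlier results of these data known. Named genes are the 8, up to 4 called genes of each pathway list with the largest change in a comparison, and the 3 genes most correlated with each of the 8 among genes reaching 10 CPM in a population. A gene of the biopterin list that this rule names is not reported here. Pcbd1, Pdxk, Cyb561d2, Pnmt and the cluster values were described beside them. Alternatives covered scaling, the filter on low counts, the block, the split, doublets, Malat1 and mitochondrial genes, the populations in the fit and each library left out.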

Additional observations from a re-analysis of the deposited data

How the results depend on the processing

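Of 600 alternative values of 40 results for single genes, 578 kept their direction and, where tested, their side of the threshold. Of the rest, 6 lost the call, 8 gained it and 8 changed direction. Values with 1 library left out have no test and were judged by direction alone. In deep neurons over non-neuronal classes, 1 gene instead of 2 was called lower with DESeq2, without scaling factors and with DESeq2's size factors in edgeR, since Pts then missed the threshold, and 3 were with all UMIs, with another split and with only the low-UMI clusters without markers of other cells, since Qdpr then passed. Qdpr there was 0.0855 with DESeq2, 0.109 without scaling factors, 0.0859 with DESeq2's size factors and 0.124 with the deep clusters holding markers of other cells counted as deep, an alternative added after seeing the data. With 1 library left out, a value without a test or scaling factors, Qdpr ran from -0.14 to 0.311. Between Shox2-rich and Rxfp1-rich neurons, 762 genes were lower with all UMIs, against 502, and 1 of the 8 instead of 2 was higher when deep and low-UMI were set by droplet. Gch1 was -0.0692 with another split, Spr was -0.142 with all UMIs, and Pts ran from -0.189 to 0.74 with 1 library left out. Th in myelinating Schwann cells missed the threshold with another split (0.46, adjusted p = 0.0793; edgeR). Thinned to 5000 UMIs, the endothelial share was 33.99% and 31.41% for Th and 54.9% and 61.55% for Dbh. Th and Dbh were then found together in 65.87% and 53.51% of deep neurons. The deeper thinning keeps more UMIs per droplet and leaves out droplets with fewer than 5000 UMIs. The cause of the other changes was not tested.

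Without the library block, the pairing of sums from the same suspension, 5184 genes were higher and 5351 lower in deep neurons over non-neuronal classes, and 399 higher and 454 lower in Shox2-rich over Rxfp1-rich neurons. It moved no count of the 8 genes. Depth limits Pts and Spr most, with a median of 0 UMIs per deep neuron.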

Other observations

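Mast cells held the RNA of other amine enzymes. Tph1, the tryptophan hydroxylase that also uses tetrahydrobiopterin, stood at 342 and 346 CPM in mast cells (log2 fold change 10.21 ± 0.40 over the other non-neuronal classes; edgeR, adjusted p = 5.21e-33), and Hdc, which makes histamine, was higher by 10.54 ± 0.09. In perineurial or epineurial cells Moxd1, a relative of Dbh, stood at 160 and 153 CPM (5.94 ± 0.12). T cells, too few for the fit, had 148 and 165 CPM of Gch1. Lymphatic endothelial cells, with 35 and 29 droplets, had 7.05 and 9.06 CPM, the level of 1 UMI in each library. An unnamed cluster led by neuron genes had 208 and 132 CPM of Th, 191 and 255 CPM of Ddc and 522 and 500.04 CPM of Dbh.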
